A study of Homo sapiens with 2 samples.

Results

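The genes described here are inhibitors and regulators of the transcription factor NF-kB, with the TNF-induced genes TNFAIP2 and TNFAIP8, which are not of their families. The 10 are NFKBIA, NFKBIB, NFKBIE, NFKBIZ, NFKBID, TNFAIP3, TNIP1, TNIP2, TNFAIP2 and TNFAIP8. They were chosen by symbol from the 36601 genes of the count matrix, and all 10 were found there and had 30 UMIs or more (a UMI, or unique molecular identifier, marks 1 captured RNA molecule). The cells were OVCAR5, a human ovarian carcinoma line, carrying a reporter of interferon-gamma (IFNg) sensing and grown as tumours in NSG-B2m-/- mice, an immunodeficient strain. From each tumour CFP+ cells, which the labels call bystanders, were sorted, tagged with hashtag antibodies and pooled into 1 droplet library read as 3' RNA.

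The labels list 13 tumours. Of these, 3 received TNFa (10 ng/ml) for 6 h, and 2 received both IFNg (100 ng/ml) and that dose of TNFa for 6 h. A further 2 received IFNg alone (100 ng/ml) for 24 h and 1 the same dose for 48 h. Tumours labelled unexposed in vivo numbered 2 at 6 h, 2 at 24 h and 1 at 48 h. The sources used here do not say which hashtags marked which tumour, so the cells were grouped by their hashtags alone and no population is called treated or untreated. Each cell carried 2 of the hashtags HTO2 to HTO9, and 13 pairs occurred: HTO2 with HTO5, 6, 7, 8 or 9, HTO3 with HTO5, 6, 7 or 9, and HTO4 with HTO6, 7, 8 or 9. These 13 populations stand for groups of cells within 1 library, with no replicate among them, so values are given with 95% intervals that cover counting error only and no p-value was computed.

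NF-kB dimers are held in the cytoplasm by IkB proteins. Signals such as TNF bound to its receptor lead to the destruction of the IkBs, and NF-kB then enters the nucleus and switches on its targets. Among those targets are genes of its own inhibitors: IkB alpha (NFKBIA), which carries NF-kB back out of the nucleus, and A20 (TNFAIP3), which edits ubiquitin chains at the receptor complex together with the ABIN proteins TNIP1 and TNIP2.

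NF-kB binds short sites built on GGG, a variable middle and CC. The sequences show which members have such a site just before a RefSeq start and what it looks like. The 250 bases before each RefSeq start (GRCh38.p14) were searched on both strands for GGG, any 2 bases, TT, any base and CC. RefSeq's table held 9 of the 10 members in 16 windows. The motif occurred in 6 of 16 windows, belonging to 5 of 9 members, against 5.07% of the 35116 windows of all genes. A looser motif with any 5 bases between GGG and CC, which contains the first, occurred in 15 of 16 member windows and in 54.4% of all windows. The 30 bases around each match are given 5′ to 3′ on the gene's strand, with the match in capitals.
NFKBIA, chr14:35404811-35404840, minus strand: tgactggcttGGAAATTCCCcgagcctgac
NFKBIB, chr19:38899931-38899960, plus strand: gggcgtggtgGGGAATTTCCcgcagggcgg
NFKBIZ, first start, chr3:101827757-101827786, plus strand: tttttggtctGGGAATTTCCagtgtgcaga
NFKBIZ, second start, chr3:101849265-101849294, plus strand: gcgcgctgtcGGGGTTTCCCggtgaagggc
TNFAIP3, chr6:137867188-137867217, plus strand: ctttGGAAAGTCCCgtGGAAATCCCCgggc
TNIP1, chr5:151081057-151081086, minus strand: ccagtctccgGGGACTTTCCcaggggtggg
TNFAIP3 had a pair of matches in a row, at -67 to -58 and -55 to -46 from its RefSeq start, both on the opposite strand. NFKBIB, NFKBIZ at its first start and NFKBIA had the same 10 letters, GGGAATTTCC, at -28 to -19, -223 to -214 and -81 to -72; in NFKBIA they lie on the opposite strand. The second NFKBIZ match lay at -239 to -230 and the TNIP1 match at -42 to -33. A match is a string of letters and does not show binding, and no match says only that these letters are not in this window.

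TNFAIP2, the member with the most UMIs, had no match to the stricter motif. Its window up to the gene's start in GENCODE 29 is given for comparison with the sites above. It held the looser motif, for example GGGCGCGCCC at -163 to -154.
TNFAIP2, chr14:103123211-103123441, plus strand: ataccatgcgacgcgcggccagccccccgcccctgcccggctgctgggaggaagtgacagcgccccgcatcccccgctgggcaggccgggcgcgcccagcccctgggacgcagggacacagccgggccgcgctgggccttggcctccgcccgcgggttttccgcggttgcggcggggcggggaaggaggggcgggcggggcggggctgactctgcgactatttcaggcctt

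The populations held 110 to 507 cells each, 2994 in all, with a median of 8646 gene UMIs per cell and 765923 to 5058403 gene UMIs per population. Of 10 epithelial markers, 3 or more were found in 2845 of the cells, and their summed level was 3694 to 5666 UMIs per 1000000 UMIs (CPM) in HTO2 populations and 4344 to 7507 in the others. T cell, B cell, endothelial and neutrophil markers were found together, 3 or more to a cell, in 0 of 2994 cells, which allows a share of up to 0.100%. Macrophage or monocyte markers were found, 3 or more to a cell, in 9 cells and fibroblast markers in 2. At least 1 macrophage or monocyte marker was found in 35.1% of cells, and their sum was 45.4 to 72.2 CPM in HTO2 populations and 39.2 to 64.0 in the others. Fibroblast markers summed to 1.62 to 7.71 CPM in HTO2 populations and 1.01 to 36.0 in the others. The share of a population's barcodes that passed the cell filter was 39.4 to 50.5% for HTO2, 24.3 to 32.8% for HTO3 and 34.9 to 58.2% for HTO4, and the median mitochondrial share of the passing cells was 14.3 to 15.6%. Their part in the results was not tested.

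Levels of the 10 genes split the populations by hashtag. The 10 genes together came to 1169 CPM in HTO2+HTO5, 4181 in HTO2+HTO6, 3261 in HTO2+HTO7, 2573 in HTO2+HTO8 and 3486 in HTO2+HTO9. Populations without HTO2 had 468 to 674 CPM, so every HTO2 population lay above all 8 others. The highest, HTO2+HTO6, was 8.93 times the lowest, HTO3+HTO7 (95% interval 8.25 to 9.68). The sum is weighted to the abundant NFKBIA, TNIP1 and TNFAIP2, and TNFAIP2 held 23771 of its 53500 UMIs. The median over the members of log2(CPM + 1) gave a ratio of 2.69. A level 4-fold or more higher in the highest than in the lowest population was reached by 7 of 10 members, against 21.9% of the 13596 genes with 30 UMIs or more. The median ratio was 7.72 over the members and 2.34 over all those genes. HTO2 populations held 57.6% of all UMIs, but 91.6% of those of TNFAIP3 and TNFAIP2, 89.1% of TNIP1 and 83.4% of NFKBIA.

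Ratios of this kind grow with counting noise, since the lowest of 13 small counts can be very low by chance. Among genes with 100 to 300 UMIs in all, as NFKBID had, 42.8% passed 4-fold. Among genes with 1000 to 3000 UMIs the share was 5.12%, and among those with 10000 or more, as NFKBIA and TNFAIP2 had, it was 8.33%. With the lower bound of the interval at 4 or more, a criterion added after the data were seen, 4 members passed (NFKBIA, TNFAIP3, TNIP1 and TNFAIP2), against 2.16% of all genes.

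**Figure D1:**
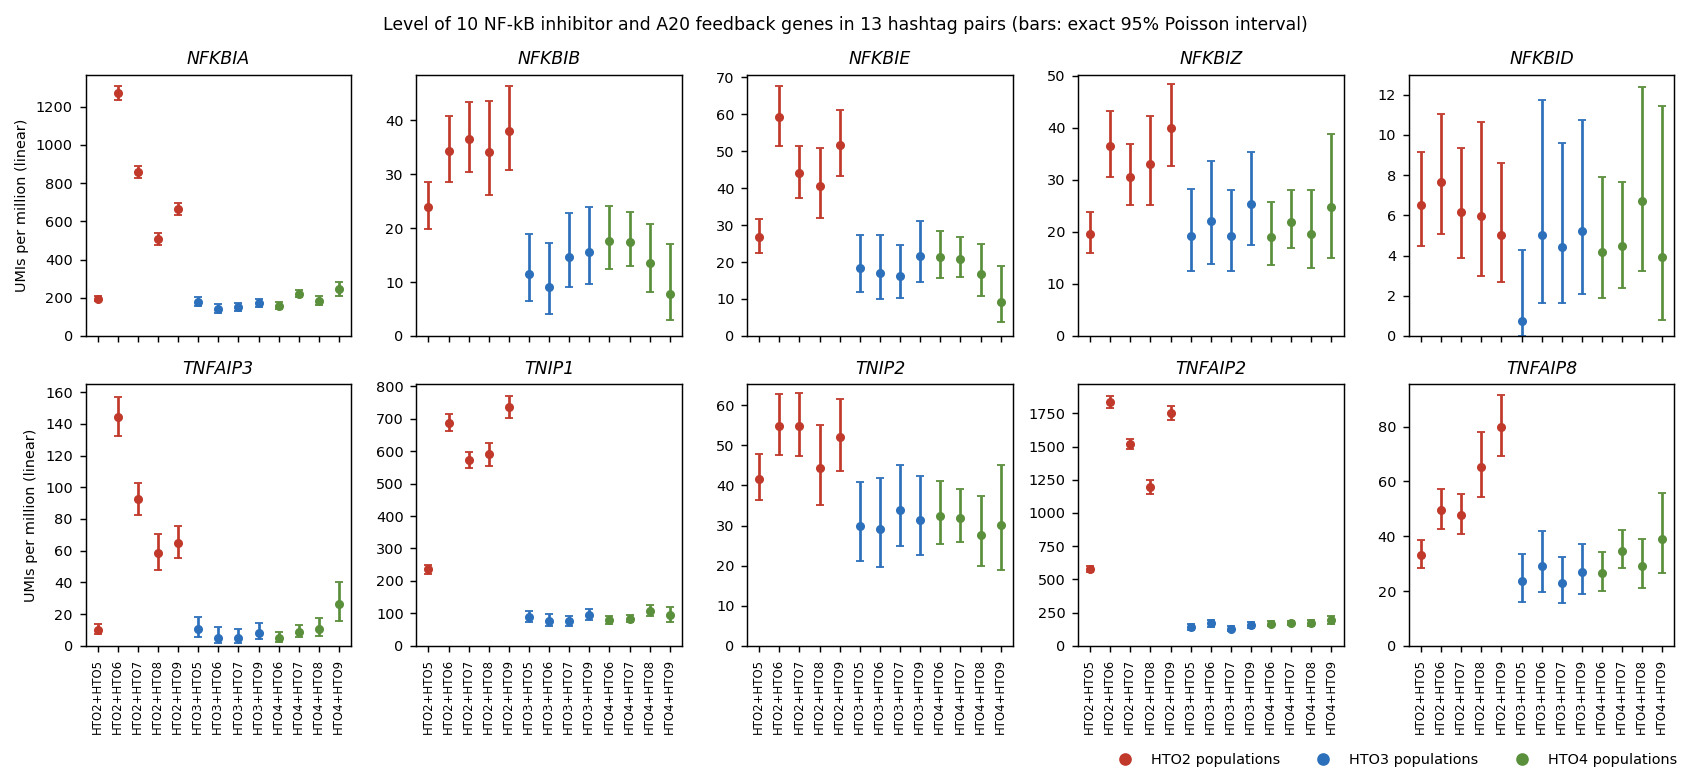
Level of each of the 10 genes in CPM (linear axes that start at 0, with a scale for each gene) in the 13 hashtag populations. Each point is 1 population, bars are 95% Poisson intervals of the count, and colours mark HTO2, HTO3 and HTO4; NFKBIA reached 1272 in HTO2+HTO6, and TNFAIP2 stood at 576 or more in every HTO2 population and at 193 or less in every other.

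NFKBIA (ENSG00000100906, chr14:35401511-35404749, minus strand, GRCh38) had 13617 UMIs. Its level was 1272 CPM in HTO2+HTO6 (1236 to 1309), 858 in HTO2+HTO7, 666 in HTO2+HTO9, 506 in HTO2+HTO8 and 195 in HTO2+HTO5. The populations without HTO2 had 142 to 244, with the highest value in HTO4+HTO9 (210 to 282). Thus 4 HTO2 populations stood clear of all others, while HTO2+HTO5 lay inside the range of the populations without HTO2. The highest level was 8.96 times the lowest, that of HTO3+HTO6 (7.57 to 10.7).

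NFKBIB encodes IkB beta, a slower-acting inhibitor of the same class (chr19:38899700-38908893, plus strand). It had 23.9, 34.4, 36.5, 34.0 and 38.0 CPM in HTO2 with HTO5, 6, 7, 8 and 9, against 7.83 to 17.6 in the populations without HTO2. The groups did not overlap, although the highest level was 4.85 times the lowest with a wide interval (2.15 to 13.5) because HTO4+HTO9 held only 6 UMIs. The ratio missed 4-fold at up to 50% mitochondrial UMIs (2.99) and with no cell filter (3.26). NFKBIB overlaps SIRT2 on the opposite strand, and nothing in the labels or headers says whether counting used strand. Whether SIRT2 reads entered the NFKBIB count was not checked.

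NFKBIE encodes IkB epsilon, a further cytoplasmic inhibitor (chr6:44258166-44265788, minus strand). Its levels in HTO2 with HTO5, 6, 7, 8 and 9 were 26.7, 59.2, 44.1, 40.5 and 51.6 CPM, against 9.14 to 21.6 without HTO2. Again the groups did not overlap. The ratio of highest to lowest was 6.47 (3.09 to 16.3). The lowest value, in HTO4+HTO9, rested on 7 UMIs, and without that population the ratio was 3.65 and missed 4-fold. Under a strict cell filter (1000 genes, at most 10% mitochondrial UMIs), which left 400 cells, the ratio over all populations was 2.16. Any population at 0 UMIs was put at 3 UMIs there, which lowers such a ratio.

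NFKBIZ and NFKBID encode the atypical, nuclear IkBs IkB zeta and IkB NS, which act on NF-kB at its targets. NFKBIZ (chr3:101827991-101861022, plus strand) had 40.0 CPM in HTO2+HTO9, 36.5 in HTO2+HTO6, 33.0 in HTO2+HTO8, 30.6 in HTO2+HTO7 and 19.6 in HTO2+HTO5. The other populations had 19.0 to 25.3, so 4 HTO2 populations were higher by a small margin and HTO2+HTO5 was not. Its ratio of highest to lowest was 2.102 (1.45 to 3.10), near the 2.34 of the median gene. NFKBID was the scarcest member, with 161 UMIs in all.

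NFKBID had 5.04 to 7.63 CPM in HTO2 populations and 0.766 to 6.74 in the others, so the groups overlapped. Its nominal ratio of 9.97 compared 28 UMIs in HTO2+HTO6 with 1 UMI in HTO3+HTO5 and had an interval of 1.65 to 408. Without HTO3+HTO5 the ratio was 1.95. The gene (chr19:35887653-35902303, minus strand) also overlaps AD000864.1 on its own strand.

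TNFAIP3, which encodes A20, had the highest ratio of the 10 members (ENSG00000118503, chr6:137867188-137883312, plus strand). It had 144 CPM in HTO2+HTO6 (132 to 157), 92.4 in HTO2+HTO7, 64.8 in HTO2+HTO9, 58.4 in HTO2+HTO8 and 10.3 in HTO2+HTO5. The populations without HTO2 had 4.64 to 10.8, with the exception of 26.1 in HTO4+HTO9, which rested on 20 UMIs (15.9 to 40.3). The order of the top 4 was that of NFKBIA, and HTO2+HTO5 again lay among the populations without HTO2. The ratio of highest to lowest, HTO4+HTO6, was 31.1 (16.8 to 65.2). It was 19.9 without HTO2+HTO6 and 5.34 under the strict cell filter. TNFAIP3 overlaps AL357060.1 on the opposite strand.

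TNIP1 encodes ABIN1, the partner that brings A20 to ubiquitin chains (ENSG00000145901, chr5:151029945-151093577, minus strand). It had 736 CPM in HTO2+HTO9, 688 in HTO2+HTO6, 590.2 in HTO2+HTO8, 573 in HTO2+HTO7 and 236 in HTO2+HTO5. The populations without HTO2 had 75.9 to 106. Here the groups did not overlap, and HTO2+HTO5 (223 to 249.8) stood above every population without HTO2. The ratio of highest to lowest, HTO3+HTO7, was 9.71 (7.96 to 12.0).

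TNIP2, which encodes ABIN2 (chr4:2741648-2756376, minus strand), had the same split at a far smaller size. Its levels were 41.7, 54.8, 54.8, 44.3 and 52.0 CPM in HTO2 with HTO5, 6, 7, 8 and 9, against 27.6 to 33.9 without HTO2. The groups did not overlap, but the ratio of highest to lowest was only 1.98 (1.41 to 2.85). Under a strict cell filter (1000 genes, at most 10% mitochondrial UMIs), which left 400 cells, it was 5.58.

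TNFAIP2 is a TNF-induced gene that takes part in forming membrane protrusions (ENSG00000185215, chr14:103123442-103137439, plus strand), and it was the most abundant member with 23771 UMIs. It had 1835 CPM in HTO2+HTO6, 1753 in HTO2+HTO9, 1518 in HTO2+HTO7, 1194 in HTO2+HTO8 and 576 in HTO2+HTO5. In the populations without HTO2 it had 126 to 193. The HTO2 populations lay above all others without overlap, and the ratio of highest to lowest, HTO3+HTO7, was 14.6 (12.5 to 17.1).

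TNFAIP8, a TNF-induced regulator of cell death (chr5:119268692-119399688, plus strand), had its own order. It had 79.9 CPM in HTO2+HTO9, 65.4 in HTO2+HTO8, 49.6 in HTO2+HTO6, 47.7 in HTO2+HTO7 and 33.2 in HTO2+HTO5. The other populations had 22.8 to 39.2, again with HTO4+HTO9 highest. The groups overlapped through HTO2+HTO5, and the ratio of highest to lowest was 3.50 (2.39 to 5.29), and 8.38 under the strict cell filter. TNFAIP8 overlaps RN7SL174P on the opposite strand.

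**Figure D2:**
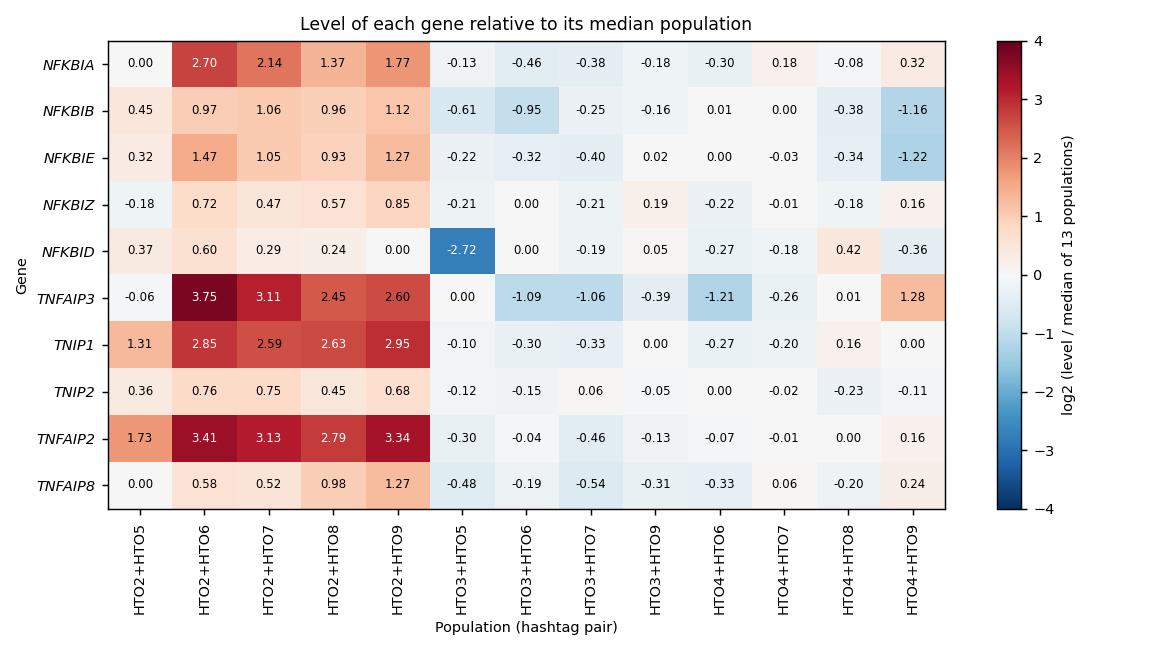
Log2 of each gene's level in a population over the median of the 13 populations, members in rows and populations in columns. In the columns of HTO2 with HTO6, 7, 8 and 9, NFKBIA, TNFAIP3, TNIP1 and TNFAIP2 are the reddest rows, at 1.37 to 3.75. The other members are paler there, from 0 (NFKBID in HTO2+HTO9) to 1.47 (NFKBIE in HTO2+HTO6). In the HTO2+HTO5 column TNIP1 (1.31) and TNFAIP2 (1.73) are the only values above 1.

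Counted over the genes, every HTO2 population exceeded every other for 5 of 10 members (NFKBIB, NFKBIE, TNIP1, TNIP2 and TNFAIP2), against 1.49% of the 13596 genes. Without HTO2+HTO5, a choice made after the data were seen, this held for 9 of 10, all but NFKBID, against 2.82% of genes. A member reached 2-fold above the median population in 25 of 130 member and population pairs. By population these were 2 members in HTO2+HTO5 (1.32% of all genes), 5 in HTO2+HTO6 (2.97%), 6 in HTO2+HTO7 (2.88%), 4 in HTO2+HTO8 (4.54%) and 7 in HTO2+HTO9 (4.38%). NFKBIA, TNFAIP3, TNIP1 and TNFAIP2 were among them in each of the last 4.

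Outside HTO2, TNFAIP3 in HTO4+HTO9 was 2-fold above the median (5.57% of all genes). No member was in HTO3 with HTO5, 6, 7 or 9 (3.17, 4.95, 3.04 and 2.95% of all genes) or in HTO4 with HTO6, 7 or 8 (2.46, 1.92 and 4.11%). Going the other way, HTO4+HTO9 had 2 members at 0.5-fold or less, NFKBIB and NFKBIE (11.9% of all genes). TNFAIP3 was that low in HTO3+HTO6 (5.76%), HTO3+HTO7 (6.45%) and HTO4+HTO6 (3.79%), and NFKBID in HTO3+HTO5 (6.28%). These low values rested on 1 to 10 UMIs each. No member was that low in HTO2 with HTO5, 6, 7, 8 or 9 (1.04, 4.53, 2.96, 11.5 and 8.09% of all genes), in HTO3+HTO9 (5.4%), HTO4+HTO7 (2.82%) or HTO4+HTO8 (6.44%).

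HTO2+HTO5 thus differed from the other HTO2 populations gene by gene. Relative to the median of the 13 populations, TNFAIP2 stood at 3.33 times and TNIP1 at 2.48 times, whereas NFKBIA was at 1.00, TNFAIP3 at 0.959, TNFAIP8 at 1.00 and NFKBIZ at 0.883. NFKBIB (1.37), NFKBIE (1.25), NFKBID (1.29) and TNIP2 (1.29) lay between. In HTO2+HTO6 all 10 were above the median population, from 1.49 for TNFAIP8 to 13.5 for TNFAIP3. HTO2+HTO5 was the largest population, with 507 cells, so its low NFKBIA and TNFAIP3 do not rest on few counts (988 and 52 UMIs).

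Among the other 4 HTO2 populations the members also ranked differently. NFKBIA in HTO2+HTO6 was 1.91 times its level in HTO2+HTO9 (1.81 to 2.02), and TNFAIP3 was 2.23 times (1.87 to 2.67). For TNIP1 the same ratio was 0.934 (0.879 to 0.992) and for TNFAIP2 1.05 (1.01 to 1.09), so these were close to level where NFKBIA and TNFAIP3 differed about 2-fold. TNFAIP8 went the other way, at 0.621 (0.506 to 0.762). The other 5 members, NFKBIB, NFKBIE, NFKBIZ, NFKBID and TNIP2, had intervals that included 1.

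In HTO2+HTO7 against HTO2+HTO8, TNIP1 was again close to level, but TNFAIP2 was not. NFKBIA was 1.69 times as high in HTO2+HTO7 (1.57 to 1.83) and TNFAIP3 1.58 times (1.27 to 1.99). TNIP1 had a ratio of 0.971 (0.901 to 1.05), TNFAIP2 of 1.27 (1.21 to 1.34) and TNFAIP8 of 0.730 (0.575 to 0.929). These pairs were picked with the levels known, and the intervals cover counting error, not differences between tumours.

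For orientation, 15 textbook targets of IFNg summed to 24429 CPM in HTO2+HTO8 and 20491 in HTO2+HTO9, against 1507 to 2641 in the other 3 HTO2 populations. HTO4+HTO8 and HTO4+HTO9 had 10933 and 12654, and the remaining populations 641 to 1742. The 10 members had 588 and 674 CPM in HTO4+HTO8 and HTO4+HTO9, against 468 to 616 in the other 6 populations without HTO2, so HTO4+HTO8 lay inside that range and HTO4+HTO9 just above it. A sum over 15 textbook TNF targets, in contrast, was 1654, 7211, 5945, 4276 and 5375 in HTO2 with HTO5, 6, 7, 8 and 9, against 471 to 1012 in the others. RELB and BIRC3 stand in that list and in a list below.

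In single cells, 9 of 10 members were found with 1 UMI or more in at least 10% of the 2994 cells. The share of all genes found that widely was not computed, so this count only describes the members. Among the 9, the shares ran from TNFAIP2 in 81.2% (79.7 to 82.5%) to NFKBIB in 19.7%. NFKBID was found in 5.08%. To compare populations at 1 depth, each cell was thinned to 4000 UMIs, which left out 186 shallower cells and lowered these shares to 67.7% for TNFAIP2, 8.58% for NFKBIB and 2.28% for NFKBID.

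NFKBIA in thinned cells was found in 44.8, 94.2, 79.9, 76.5 and 77.7% of cells in HTO2 with HTO5, 6, 7, 8 and 9, against 30.2 to 44.0% in the other populations. At the deposited depth, with all cells, it was found in 63.5 to 96.2% in HTO2 populations, against 46.2 to 70.9% in the others. Mean thinned UMIs per cell were 5.61 in HTO2+HTO6 and 0.795 in HTO2+HTO5, so both the share of cells and the amount per cell were higher in HTO2+HTO6. After thinning, 5 or more NFKBIA UMIs were found in 56.8% of cells in HTO2+HTO6 and in 1.87% of cells in HTO2+HTO5.

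TNFAIP3 was found in 43.8, 25.7, 17.3 and 22.7% of thinned cells in HTO2 with HTO6, 7, 8 and 9. It was found in 3.73% in HTO2+HTO5 (2.23 to 5.84%) and in 1.48 to 6.20% in the populations without HTO2, the low level that free RNA in droplets could also give. At the deposited depth the shares were 9.47 to 58.8% in HTO2 populations and 3.98 to 12.7% in the others. No population is a cell type known to lack these genes, so the free RNA level itself was not measured.

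TNIP1 and TNFAIP2 were widespread even in HTO2+HTO5. TNIP1 was found in 56.0, 91.6, 81.1, 85.5 and 91.0% of thinned cells in HTO2 with HTO5, 6, 7, 8 and 9, against 26.7 to 37.1% elsewhere. TNFAIP2 was found in 76.3, 96.5, 87.7, 93.3 and 95.3%, against 33.3 to 54.4%. In neither gene did the HTO2 populations overlap with the rest. Thinned cells with no TNFAIP2 UMI made up 23.7, 3.48, 12.3, 6.70 and 4.72% in HTO2 with HTO5, 6, 7, 8 and 9. For NFKBIA these shares were 55.2, 5.80, 20.1, 23.5 and 22.3%, so HTO2+HTO6 had the fewest cells without either gene.

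**Figure D3:**
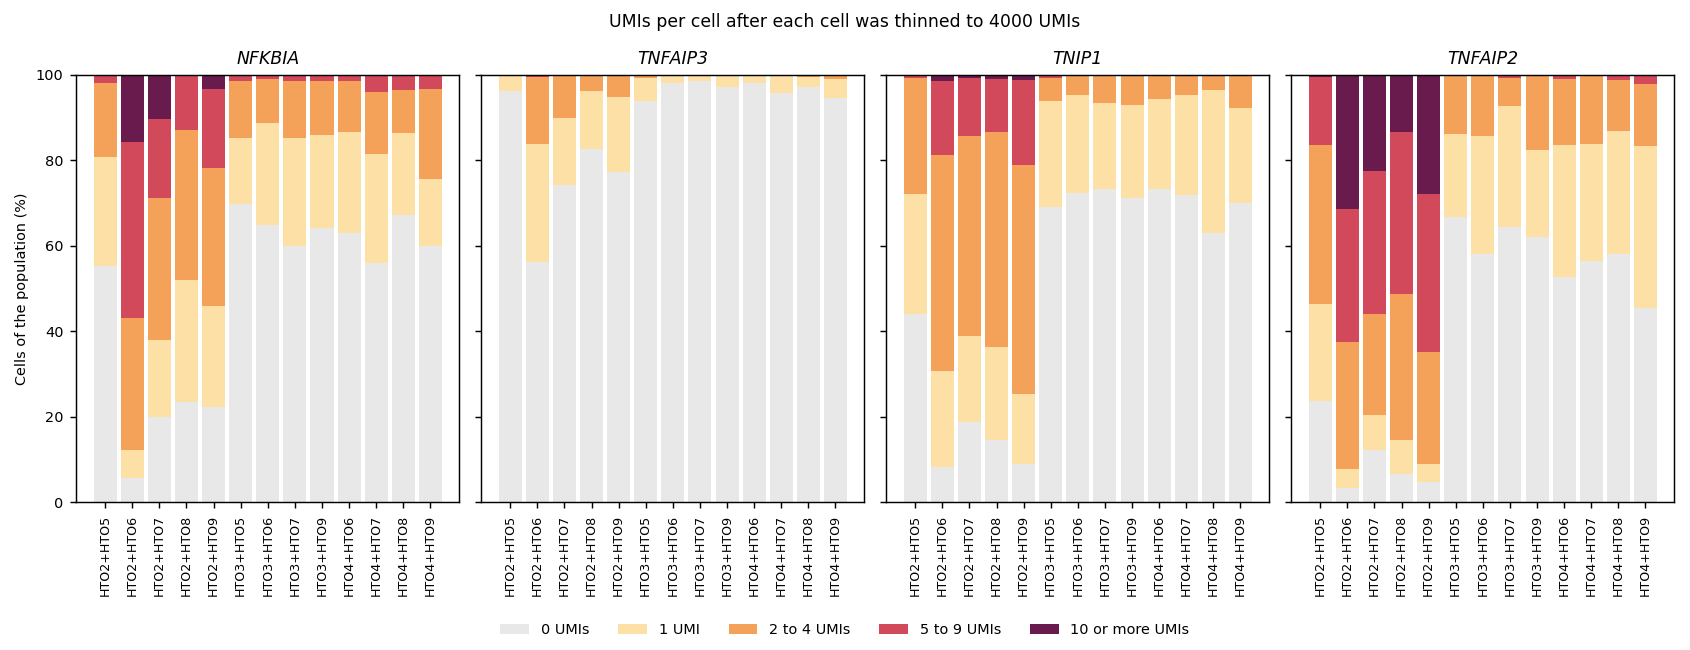
Share of cells, thinned to 4000 UMIs, by number of UMIs of 4 members (0, 1, 2 to 4, 5 to 9, 10 or more) in each population. NFKBIA and TNFAIP2 reach 10 or more UMIs in 15.7% and 31.3% of HTO2+HTO6 cells, while in HTO2+HTO5 55.2% and 23.7% of cells have none.

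Counted per cell, thinned cells held on average 2.37, 4.15, 3.56, 3.53 and 3.81 of the 10 members in HTO2 with HTO5, 6, 7, 8 and 9, against 1.44 to 1.79 in the others. At least 5 members were found in 35.1% of HTO2+HTO6 cells and 3.53% of HTO2+HTO5 cells. Cells in which none of the 10 was found made up 0.290% in HTO2+HTO6 and 4.77% in HTO2+HTO5, against 10.0 to 23.0% in the populations without HTO2.

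Within a population, cells with a TNFAIP3 UMI tended to hold more NFKBIA. Mean thinned NFKBIA UMIs were 6.74 in the 151 cells with TNFAIP3 and 4.73 in the 194 without in HTO2+HTO6. They were 5.27 and 3.03 in HTO2+HTO7, 4.23 and 2.41 in HTO2+HTO9, and 2.097 and 1.98 in HTO2+HTO8, where 31 cells had TNFAIP3. NFKBIA was thus 1.42 to 1.76 times as high beside TNFAIP3 in HTO2 with HTO6, 7 and 9, and near level in HTO2+HTO8 (1.06).

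TNFAIP2 had ratios of 1.20, 1.53, 1.15 and 1.23 between cells with and without TNFAIP3 in HTO2 with HTO6, 7, 8 and 9. For TNIP1 the ratios were 0.962, 1.42, 1.63 and 1.30, so HTO2+HTO6 alone had no more TNIP1 in cells with TNFAIP3. The scarcer members went either way: NFKBIB had 0.347 and NFKBID 0.214 in HTO2+HTO6 and TNIP2 had 0.551 in HTO2+HTO9, whereas NFKBIE had 1.56 and TNFAIP8 1.60 in HTO2+HTO7. Cells of 1 population share a library and a hashtag pair and are not replicates, and no test was made.

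Among 16 receptors, adaptors and kinases upstream of NF-kB, 2 passed 4-fold, a share below the 21.9% of all genes, with a median ratio of 2.17. The count was 7 under a strict cell filter (1000 genes, at most 10% mitochondrial UMIs), where 34.1% of all genes passed. It was 6 after thinning (28.8% of all genes) and 0 with the lower bound of the interval at 4 or more (2.16%). TNFRSF1B, the second TNF receptor, had 15.4 to 45.4 CPM in HTO2 populations and 10.3 to 24.8 in the others, with a ratio of 4.40 (2.52 to 8.30). TAB1, an activator of the kinase TAK1, had a ratio of 12.1 (1.35 to 571), with 1 UMI in its lowest population. TNFRSF1A, the main TNF receptor, had a ratio of 1.87 (1.30 to 2.74), and its highest population, HTO3+HTO7, was one without HTO2.

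Of the 5 NF-kB subunits and the related BCL3, 3 of 6 passed 4-fold, against 21.9% of all genes, and the median ratio was 4.19. With the lower bound at 4 or more, 1 of 6 passed (2.16% of all genes), and 5 under the strict filter (34.1%). RELB, of the alternative pathway, had 42.9 to 96.8 CPM in HTO2 populations and 13.3 to 21.6 in the others, a ratio of 7.30 (4.55 to 12.5). BCL3, an atypical IkB, had 6.33 to 35.4 and 6.04 to 14.4, a ratio of 5.87 (2.62 to 16.3). NFKB2, the p100 precursor that also works as an inhibitor, had 29.1 to 62.5 and 13.1 to 24.2, a ratio of 4.78 (2.54 to 10.2). NFKB1, NFKB2 and RELB did not overlap between HTO2 populations and the rest, with HTO2 higher, as held for 1.49% of all genes.

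Among 18 further ubiquitin enzymes and brakes, 5 passed 4-fold, close to the 21.9% of all genes, and the median ratio was 2.91. With the lower bound at 4 or more, 1 passed (2.16% of all genes). BIRC3, a ubiquitin ligase of the TNF receptor complex, had 137 to 557 CPM in HTO2 populations and 56.0 to 109 in the others, a ratio of 9.94 (7.91 to 12.7). TNIP3, the third ABIN gene, was scarce, with 151 UMIs and 0 in HTO3+HTO7; its highest population, HTO2+HTO6, was at least 8.02-fold higher against a floor of 3 UMIs in that population. ZC3H12A, an RNase that degrades inflammatory transcripts, had a ratio of 6.75 (2.99 to 18.8), and OTULIN one of 10.1 (2.36 to 91.4) that rested on 2 UMIs in its lowest population. CYLD, a deubiquitinase, ranked differently from the members: it was highest in HTO2+HTO8 at 66.5, and HTO4+HTO9 had 41.8, with a ratio of 5.73 (3.71 to 9.20).

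Of the 5 other genes with TNFAIP names, 3 had 30 UMIs or more, with a median ratio of 3.30. Of these 1 passed 4-fold, against 21.9% of all genes. This was TNFAIP6, a hyaluronan-binding secreted protein, with 10.3 to 48.5 CPM in HTO2 populations and 0 to 1.31 in the others, at least 47.1-fold higher in HTO2+HTO6 than in HTO4+HTO7, which held none and was put at the floor of 3 UMIs. Of the TNF targets, 13 of 14 with 30 UMIs or more passed 4-fold, against 21.9% of all genes, with a median of 21.1. The exception was IER3, with a ratio of 2.50 (2.26 to 2.77). It was highest in HTO2+HTO6 (473 CPM) and lowest in HTO2+HTO9 (189). Its median was 254 CPM over HTO2 populations and 332 over the others. LTB had a ratio of 99.2, CXCL8 of 81.5 and CCL2 of 77.0, and CCL20, at 0 UMIs in its lowest population, of at least 90.6 against the floor of 3 UMIs. All 15 IFNg targets passed, with a median of 52.6.

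**Figure D4:**
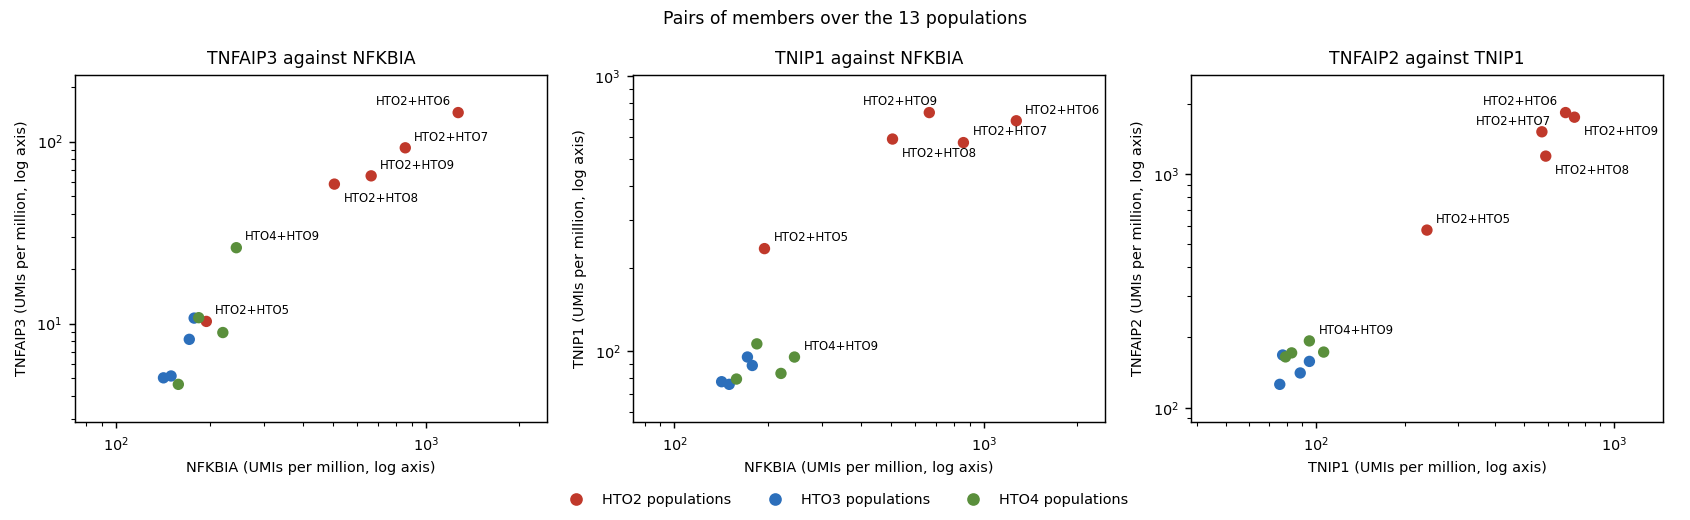
Levels of pairs of members in CPM (log axes), 1 point per population, coloured by HTO2, HTO3 or HTO4. TNFAIP3 and NFKBIA run together along 1 line, with HTO2+HTO5 among the populations without HTO2; TNIP1 and TNFAIP2 keep HTO2+HTO5 between those and the other HTO2 populations.

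Over the 13 populations, correlations of log2(CPM + 1) describe which genes shared a pattern. The points share a library and differ in depth, so no p-value is given. The closest pairs of members were TNIP1 with TNFAIP2 (Pearson r 0.993) and NFKBIA with TNFAIP3 (0.975). The 45 pairs had a median r of 0.857, and over the 8 populations without HTO2 the median was 0.121, with a range of -0.729 to 0.890. The members thus ran together mainly where HTO2 populations were among the points.

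Of genes that are not members, those most like NFKBIA were EGFR, a growth factor receptor (r 0.970), the chemokines CXCL8 (0.968) and CCL2 (0.968), UGCG (0.953) and PTX3 (0.953). TNFAIP3 was most like BTG1 (0.962), SLC25A37 (0.960), TRAF3 (0.958), EGFR (0.957) and IRAK2 (0.953). EGFR spanned only 160 to 281 CPM, so its pattern was alike in order and shape but far smaller in size. TNIP1 was most like RELB (0.990), SOD2 (0.986) and CHI3L2 (0.984), and TNFAIP2 like RELB (0.986), CHI3L2 (0.985) and VCAM1 (0.982).

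TNIP2 was most like SDC4 (0.986), FTH1 (0.977) and PTX3 (0.973), NFKBIE like SLCO3A1 (0.967), XDH (0.958) and FTH1 (0.958), and NFKBIB like DUSP1 (0.947), SLCO3A1 (0.946) and JAK1 (0.945). FTH1, the ferritin heavy chain, has near-identical pseudogenes that can share its reads. NFKBIZ was most like OSGIN2, SAMD4A (0.948) and ATF5 (0.940), and TNFAIP8 like NBN (0.953), NNMT (0.951) and NINJ1 (0.944). For NFKBID the closest were RIOK1 (0.937), POLR3A (0.876) and FOXA2 (0.875), from 161 NFKBID UMIs in all. By ranks (Spearman) the same correlations were only 0.670, 0.302 and 0.665. NFKBID had 1 UMI in HTO3+HTO5, and how far r rested on that population was not tested.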

How the data were processed

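Per the deposited files, the values are UMI counts: whole numbers with no normalisation, for 36601 genes and 10 hashtags over 9083 barcodes of 1 library. Their header records Cell Ranger 5.0.1 as the authors' tool; version 2.1.1 and the build GRCh38 stand in the submitters' processing notes. No source states whether counting used strand. The labels give a single treatment for each of the gene and hashtag libraries, at odds with their own list of 13 pooled tumours, and those fields were not used.

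The cell filter asked for 500 genes and allowed up to 20% mitochondrial UMIs: 3611 barcodes met it, and 5375 had a higher mitochondrial share. A hashtag pair needed the second of HTO2 to HTO9 at 20 counts or more and at 4 times the next, which left 2994 cells in 13 of 28 possible pairs and removed barcodes with 3 strong hashtags as multiplets; no doublet caller was run. Counts were summed per population and scaled to 1000000 UMIs (CPM), with exact Poisson intervals, exact conditional binomial intervals for ratios and Clopper-Pearson intervals for shares (95%, counting error only). A lowest population at 0 was put at 3 UMIs. Genes with 30 UMIs or more formed the background. Each member with 100 UMIs or more was given its 3 most alike genes (5 for NFKBIA and TNFAIP3). From each list the genes past 4-fold were named, up to 6, with a few named for their role. The members and lists were chosen with earlier results of these data known, and the grouping by HTO2 likewise. Ratios and intervals were tested on simulated data. Alternatives were other cell filters, hashtag rules, denominators, minimum counts, thinning, and leaving out populations. Coordinates came from GENCODE 29 by gene ID, and promoters from RefSeq. The work used matplotlib 3.10.9, scipy 1.17.1, numpy 2.4.6, pandas 2.3.3 and Python 3.11.15.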

Additional observations from a re-analysis of the deposited data

Results flagged for a closer look

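The 617 barcodes that passed the cell filter but had no clear hashtag pair were in no population. The 10 members summed to 1858 CPM there, above the limit that a count of 0 allows and against 1843 in the cells of the populations. NFKBIA stood at 509 and TNFAIP3 at 46.7 in those barcodes, against 469 and 44.6 in the populations. They enter no comparison.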

How the results depend on the processing

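With 1 library and no tumour assigned to a hashtag pair, each value rests on the populations of that library, and its interval covers counting error only. The count of 7 members past 4-fold became 4 with the lower bound of the interval at 4 or more (2.16% of all genes). There the upstream genes numbered 0, the subunits 1 and the brakes 1. The member count was 5 at up to 50% mitochondrial UMIs (20.6% of all genes) and 5 with no cell filter (20.2%). NFKBIB and NFKBID missed 4-fold in both settings. After thinning the member count was 8 (28.8%). The strict filter (1000 genes, at most 10% mitochondrial UMIs) left 400 cells, and the summed members had a ratio of 8.05. There 2 members did not overlap between HTO2 populations and the others (0.490% of all genes). Past 4-fold were 7 upstream genes, 5 subunits and 2 other TNFAIP genes, against 34.1% of all genes. Under that filter 7 members passed 4-fold as before, but not the same ones: TNIP2 (5.58) and TNFAIP8 (8.38) passed, NFKBIE (2.16) did not, and TNFAIP3 had 5.34. Any population at 0 UMIs was put at 3 UMIs, which lowers a ratio, so these values do not show whether differences were smaller in those cells. Of the upstream genes, 1 passed at up to 50% mitochondrial UMIs (20.6% of all genes) and 1 with no cell filter (20.2%). With the second hashtag 8 times the third 1 passed (23.0%), and after thinning 6 (28.8%). Of the other TNFAIP genes, 2 passed with the stricter hashtag rule and 3 after thinning, against 23.0% and 28.8% of all genes. The median over members in place of the sum gave a ratio of 2.69. The causes were not tested. Leaving out each population in turn, the summed ratio was 7.44 (without HTO2+HTO6) to 8.93, members past 4-fold 6 to 7 (6 without HTO3+HTO5, which lost NFKBID, or without HTO4+HTO9, which lost NFKBIE), pairs 2-fold above the median 21 to 28, and members without overlap 5 to 9 (9 without HTO2+HTO5). Of the recomputed values of summary results, 144 stayed within 1.5 times the count or within the interval, and 18 moved beyond that. For ratios of single members, 72 stayed and 7 moved. Some of these values could not change, such as the summed ratio without a population that was neither highest nor lowest. The counts therefore do not measure robustness. No paired analysis was possible because there is 1 library and its populations carry no replicate numbers. NFKBID had no ratio under the strict filter, its counts being at or under the floor.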
